A study of Mus musculus with 8 samples.

Results

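The genes described here are 9 retinoid genes, Stra6, Crabp2, Retsat, Rdh10, Aldh1a1, Aldh1a2, Rara, Rarb and Rarg, found by their Entrez identifiers among the 27179 genes counted in neonatal mouse cardiomyocytes (NCMs). They were selected on knowledge of their diesel exhaust and filtered air values in this same count table, so their own differences are given as a description. No p is given for them, and nothing is read from whether one of them passed the threshold applied to the whole table. The study asked how inhaling diesel exhaust during pregnancy alters the heart cells of the offspring. C57Bl/6J dams breathed either filtered air (FA) or diesel exhaust (DE) on weekdays from embryonic day 0.5 to late gestation, shortly before birth. NCMs were isolated from male pups on the day of birth, 1 heart per library, after atrial tissue was trimmed away and fibroblasts were left to attach to a plate. The cells of both groups were dissociated with the enzyme blend Liberase TH and held in medium with serum and Ara-C, an inhibitor of DNA synthesis, during that attachment step. RNA-seq counts were available for 4 FA libraries (replicates 2, 3, 4 and 6) and 4 DE libraries (replicates 1, 3, 5 and 7).

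Retinoids are derived from vitamin A. Retinol enters cells through the membrane receptor STRA6 and is oxidised first to retinaldehyde by retinol dehydrogenases and then to retinoic acid by retinaldehyde dehydrogenases. Retinoic acid, carried to the nucleus by CRABP2, binds the receptors RARα, RARβ and RARγ, which act on DNA as heterodimers with retinoid X receptors. In the embryonic heart, retinoic acid made largely by ALDH1A2 is known for its part in patterning the atria and in signals from the epicardium to the growing myocardium.

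Library totals ran from 17943024 to 39839737 counts. Levels are CPM, that is counts scaled to a common library size with TMM factors, and a gene was called when the adjusted p of edgeR's quasi-likelihood test was at most 0.05 with a difference of at least 25%. Of the 14966 genes with enough counts to test, 868 were called, 536 higher and 332 lower in DE. The sample names carry the number 11 or 12, whose meaning is not given. All 4 FA libraries and DE replicates 1 and 7 carry 11, and DE replicates 3 and 5 carry 12. Cardiomyocyte markers (12 genes) summed to 80470 to 85690 CPM in FA and 68220 to 79160 in DE, but the preparations also held RNA of other cells. Fibroblast markers (12 genes) summed to 2208 to 3735 CPM in FA and 3887 to 6552 in DE, with 12 of 12 higher in DE, 3 called (Dcn, Col1a1 and Thy1) and 9 at an unadjusted p under 0.05, against 5.80% called and 25.6% under 0.05 among all tested genes. Whether such a difference reflects the number of cells of a type or the RNA per cell cannot be told apart in bulk samples.

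The start of the Rarb transcript and that of Retsat are shown because Rarb holds the classic retinoic acid response element of this pathway and Retsat was the gene of the set with the largest difference. Each sequence is the 250 bases before the RefSeq transcript start in build GRCm38.p6, written 5′ to 3′ on the strand of the gene. Capitals mark matches to the half-site AGGTCA or its accepted variants, which are AGTTCA, the form GGGTCA and also the form GGTTCA, on either strand. Rarb lies at chr14:16575477-16575726 on the minus strand and Retsat at chr6:72598352-72598601 on the plus strand.
Rarb: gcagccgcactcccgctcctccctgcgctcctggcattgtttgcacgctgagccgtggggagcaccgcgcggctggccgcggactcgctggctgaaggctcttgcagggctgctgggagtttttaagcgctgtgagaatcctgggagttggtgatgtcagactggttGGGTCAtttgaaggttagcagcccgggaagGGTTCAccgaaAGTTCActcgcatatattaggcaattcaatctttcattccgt
Retsat: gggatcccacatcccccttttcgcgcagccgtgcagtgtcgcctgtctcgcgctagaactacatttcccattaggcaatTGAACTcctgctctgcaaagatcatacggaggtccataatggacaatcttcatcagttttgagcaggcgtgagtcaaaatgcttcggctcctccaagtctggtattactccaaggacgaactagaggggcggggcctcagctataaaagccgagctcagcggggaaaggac

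Retinoic acid receptors favour direct repeats of such half-sites with spacers of 1, 2 or 5 bases. The search covered both strands of windows running from 250 bases before to 50 bases after each start, with 15 windows for 7 of the 9 genes and none for Rdh10 or Crabp2. The single repeat among them was the Rarb element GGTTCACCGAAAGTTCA, which has a spacer of 5 bases and lies 53 to 37 bases before the start. A repeat with a spacer of 5 was present in 32 of all 32851 windows (0.0974%), a spacer of 1 in 73 (0.222%) and a spacer of 2 in 88 (0.268%). Retsat had 1 lone half-site, on the opposite strand, and 43.7% of all windows held at least 1. These matches describe letters in a window and say nothing of binding in NCMs.

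Stra6 (Entrez 20897, chromosome 9, 58063793 to 58154004), the uptake receptor for retinol bound to plasma retinol-binding protein, was close to absent. Its 4 counts in all fell as 1 in FA replicate 6, 2 in DE replicate 1 and 1 in DE replicate 3. The other 5 libraries had 0 counts, where 3 counts would have been 0.0748 to 0.169 CPM. It was not tested, and a difference was not detectable at this depth.

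Crabp2 (Entrez 12904, chromosome 3, 87948693 to 87953372) encodes the carrier that hands retinoic acid to its receptors. Its levels were 1.23, 1.15, 1.02 and 1.13 CPM in FA replicates 2, 3, 4 and 6, and 1.09, 1.71, 3.10 and 2.59 CPM in DE replicates 1, 7, 3 and 5. DE replicates 3 and 5 stood above every other library, while DE replicate 1 lay within the FA range. The means were 1.13 ± 0.0881 CPM (SD, n = 4) in FA and 2.12 ± 0.897 in DE, a log2 fold change of 0.91 ± 0.30 (SE). Among libraries numbered 11 alone the log2 fold change was 0.25, so that most of the difference lay in the DE libraries numbered 12. The 390 counts behind it, 18 to 108 per library, limit its precision.

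Retsat was the gene of the set that differed most, at 23.9 CPM or less in every DE library against 45.5 or more in every FA library. It encodes retinol saturase, an oxidoreductase that converts all-trans-retinol to dihydroretinol and is known from fat cells and liver. Retsat (Entrez 67442, chromosome 6, 72598602 to 72607488) stood at 45.5, 56.1, 48.6 and 50.3 CPM in FA replicates 2, 3, 4 and 6 and at 23.9, 23.3, 21.7 and 21.4 CPM in DE replicates 1, 7, 3 and 5. The lowest FA library was well above the highest DE library, and the DE libraries lay closer together than the FA libraries. The mean went from 50.1 ± 4.41 CPM (SD, n = 4) in FA to 22.6 ± 1.22 in DE, 2.22-fold lower, with a log2 fold change of -1.15 ± 0.10 (SE). It rested on 7553 counts and passed the threshold for the whole table, as did 332 of all tested genes in the lower direction (2.22%). Its ranges did not overlap, as for 14.7% of all tested genes. Because the gene was picked with this contrast known, nothing is read from either count. The DE means were 23.6 CPM in libraries numbered 11 and 21.5 in those numbered 12, and with libraries numbered 11 alone the log2 fold change was -1.09. In the GENCODE exon models, 650 of the 3537 Retsat exon bases (18.4%) are also covered by the opposite-strand gene Gm45053, which was not analysed here.

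Rdh10 (Entrez 98711, chromosome 1, 16105882 to 16132550) encodes the dehydrogenase that carries out the first oxidation, retinol to retinaldehyde, in the embryo. It measured 14.0, 12.1, 13.2 and 12.6 CPM in FA replicates 2, 3, 4 and 6, and 14.1, 15.6, 13.9 and 11.3 CPM in DE replicates 1, 7, 3 and 5. The FA values fell inside the DE range. The log2 fold change was 0.08 ± 0.12 (SE), with means of 13.0 ± 0.792 and 13.7 ± 1.78 CPM (SD, n = 4 each).

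Aldh1a1 and Aldh1a2 encode retinaldehyde dehydrogenases, the enzymes of the second, irreversible oxidation. Aldh1a2 (Entrez 19378, chromosome 9, 71215789 to 71296243), the main embryonic form, was at 10.1, 9.22, 12.6 and 18.4 CPM in FA replicates 2, 3, 4 and 6, and at 14.9, 14.8, 17.8 and 17.96 CPM in DE replicates 1, 7, 3 and 5. FA replicate 6 was the highest of the 8 libraries, and the other 3 FA libraries lay below all 4 DE libraries. The means were 12.6 ± 4.13 CPM (SD, n = 4) in FA and 16.4 ± 1.74 in DE, a log2 fold change of 0.38 ± 0.19 (SE). Without FA replicate 6 it was 0.62. Markers of mesothelium and epicardium (14 genes), where Aldh1a2 is abundant, summed to 189.9 to 227.8 CPM in FA and 178.8 to 207.2 in DE, with 215.0 CPM in FA replicate 6. Of the 14, 0 were called in edgeR's quasi-likelihood fit, and 4 had an unadjusted p under 0.05, against 5.80% and 25.6% of all tested genes. Their part in the Aldh1a2 values was not tested.

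Aldh1a1 (Entrez 11668, chromosome 19, 20492583 to 20643463) was at 2.78, 2.74, 3.05 and 3.39 CPM in FA replicates 2, 3, 4 and 6, and at 6.47, 2.29, 3.36 and 1.92 CPM in DE replicates 1, 7, 3 and 5. DE replicate 1 stood alone at the top, and DE replicates 5 and 7 lay below the FA range. The log2 fold change of 0.24 ± 0.33 (SE) became -0.24 without DE replicate 1. That library also had the highest summed fibroblast markers, 6552 CPM, and the part of these markers in the Aldh1a1 value was not tested.

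**Figure D1:**
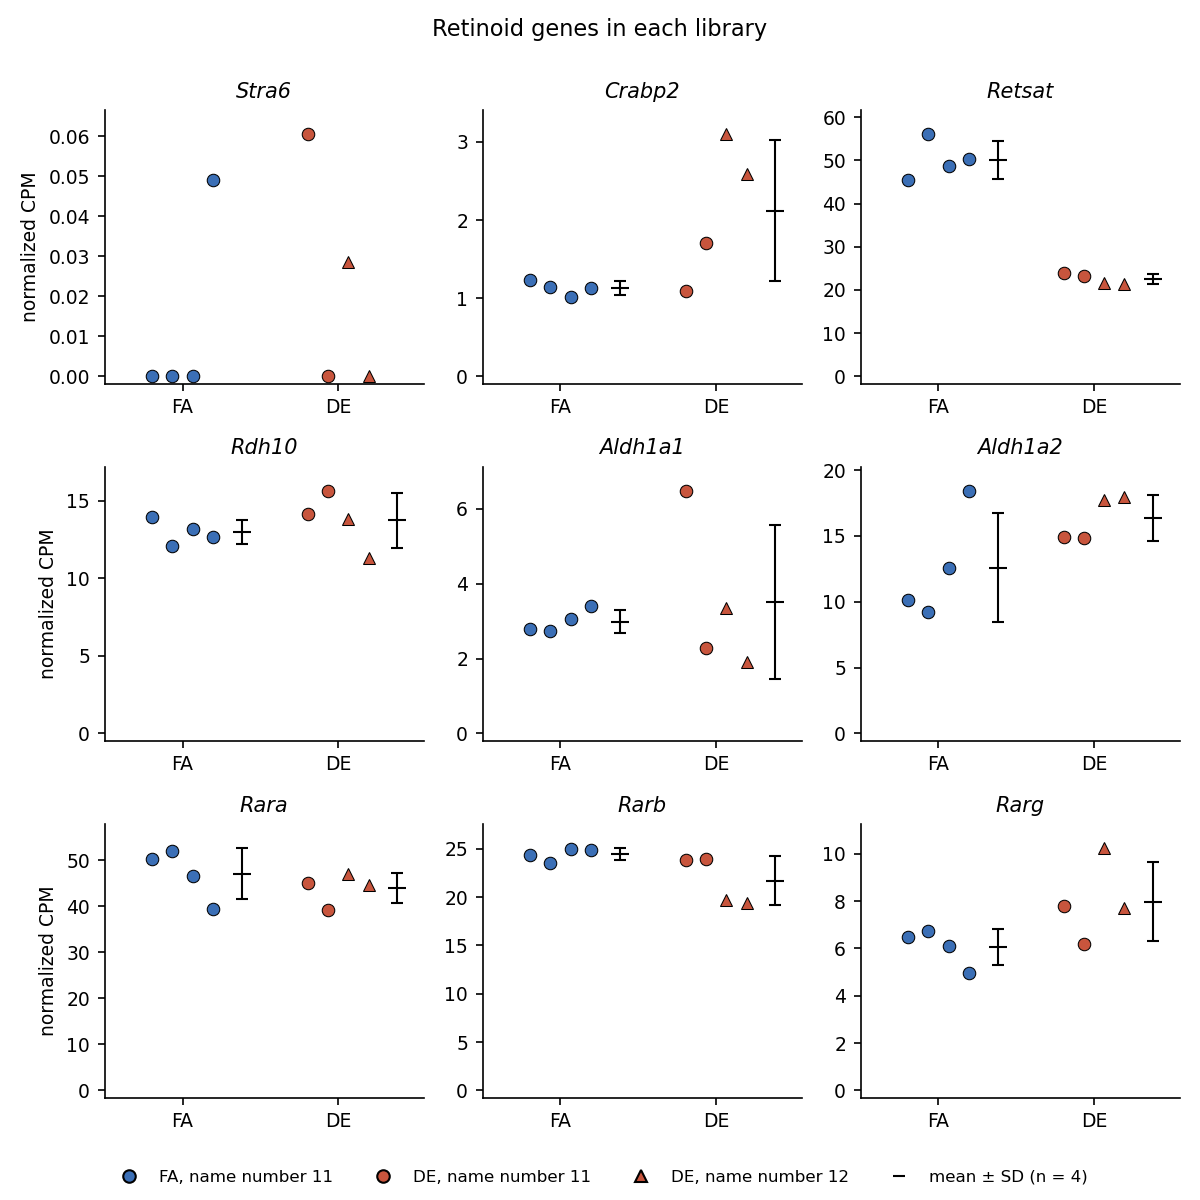
Level of each of the 9 retinoid genes in the 8 libraries, in TMM-normalized CPM on linear axes that start at 0. Each point is a library, circles carry the number 11 and triangles 12 in the sample name, and the black marks give the mean ± SD (n = 4), left out for Stra6, whose points rest on 0 to 2 counts. Retsat is at 45.5 CPM or more in FA and 23.9 or less in DE, while in the other panels FA and DE points overlap.

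Rara (Entrez 19401, chromosome 11, 98927800 to 98974942), which encodes the broadly expressed receptor RARα, differed little. It measured 50.3, 51.9, 46.7 and 39.4 CPM in FA replicates 2, 3, 4 and 6, and 45.0, 39.2, 47.0 and 44.6 CPM in DE replicates 1, 7, 3 and 5. The groups overlapped over most of their range, with means of 47.1 ± 5.55 and 43.97 ± 3.34 CPM (SD, n = 4 each) and a log2 fold change of -0.10 ± 0.11 (SE).

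Rarb (Entrez 218772, chromosome 14, 16430839 to 17082331) encodes RARβ and is itself switched on by retinoic acid through the element shown above. Its levels were 24.4, 23.6, 24.9 and 24.8 CPM in FA replicates 2, 3, 4 and 6, and 23.8, 24.0, 19.6 and 19.4 CPM in DE replicates 1, 7, 3 and 5. DE replicates 3 and 5 were low and the other 2 DE libraries lay within the FA range. The log2 fold change was -0.17 ± 0.11 (SE), and -0.04 among libraries numbered 11. In the GENCODE exon models, 1793 of the 5265 exon bases (34.1%) of Rarb are also covered by the opposite-strand gene Top2b. Top2b stood at 254.6 to 351.4 CPM in FA and 197.3 to 295.4 in DE. Rarb exons share 227 bases (4.31%) with the opposite-strand gene Gm48162 in the same models. By the RefSeq positions Top2b ends at 16430787, before Rarb begins, so these genes do not overlap there. Neither the gene models nor the strand setting of the counting is given in the sources used here. Whether the Rarb value holds Top2b reads is therefore uncertain.

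Rarg (Entrez 19411, chromosome 15, 102234938 to 102257522), the gene of RARγ, had 6.47, 6.73, 6.09 and 4.97 CPM in FA replicates 2, 3, 4 and 6, and 7.81, 6.18, 10.2 and 7.71 CPM in DE replicates 1, 7, 3 and 5. Only DE replicate 7 lay within the FA range, and the other 3 DE libraries were above it. The means were 6.06 ± 0.776 CPM (SD, n = 4) and 7.98 ± 1.68, and the log2 fold change was 0.40 ± 0.17 (SE). With libraries numbered 11 alone it was 0.21.

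Of the 9 genes, 8 could be tested, 5 with a fold change above 0 and 3 below it. Retsat was the 1 past the threshold for the whole table and the 1 whose groups did not overlap, and both describe values that were known when the genes were chosen. Across all tested genes 5.80% were called and 14.7% did not overlap. The median log2 fold change over the 8 genes was 0.16 and over all tested genes 0.0037.

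Levels were set against each other as CPM per kilobase of exon. In FA the order was Retsat at 14.2 (12.9 to 15.9 over the libraries), Rara at 10.8, Aldh1a2 at 5.56, Rarb at 4.64, Rdh10 at 3.12, Rarg at 1.42, Crabp2 at 0.855, Aldh1a1 at 0.606 and Stra6 last. Aldh1a2 and Rarb overlapped over the FA libraries, while the other neighbours in this order did not. In DE, Rara came first at 10.1, followed by Aldh1a2 at 7.22 and Retsat at 6.38 ± 0.344 (SD, n = 4), whose ranges overlapped. Rarb at 4.12 and Rdh10 at 3.30 overlapped, as did Rarg at 1.87 with Crabp2 at 1.60 and Crabp2 with Aldh1a1 at 0.711. Retsat thus led the set in FA and fell to a level shared with Aldh1a2 in DE.

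**Figure D2:**
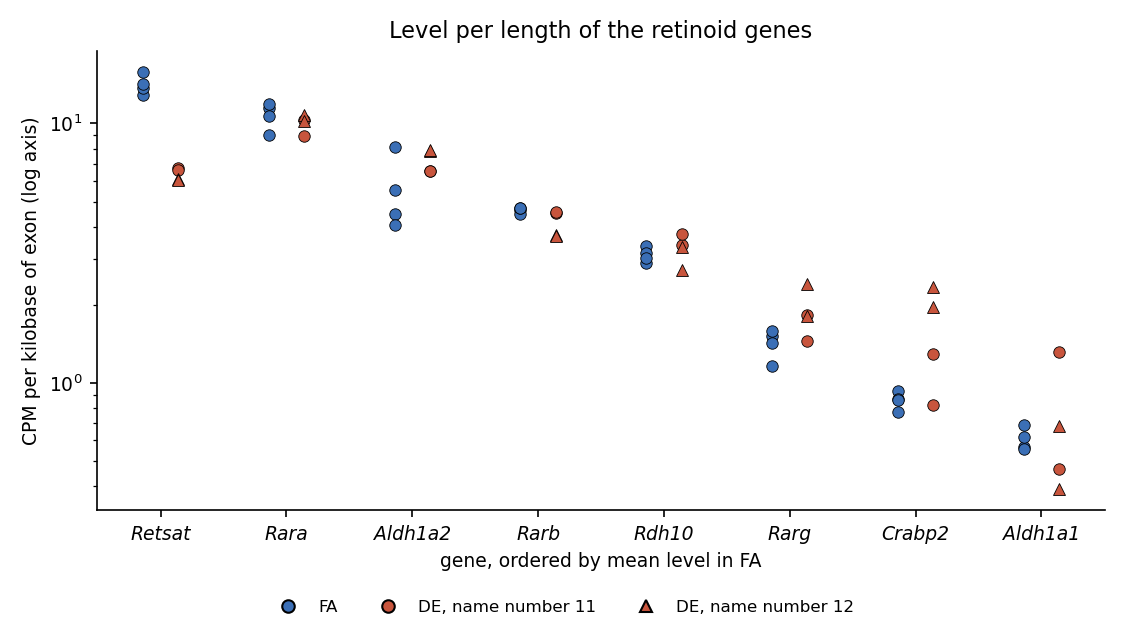
Level of each retinoid gene per kilobase of exon (normalized CPM per kb, log axis), one point per library, with FA and DE side by side. Retsat averages 14.2 in FA and 6.38 in DE, and Rara averages 10.8 and 10.1.

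Among the receptors, RARα transcripts made up most of the sum in both groups. Per length, Rara held 63.9% ± 2.50 (SD, n = 4) of the 3 receptor genes in FA and 62.6% ± 2.23 in DE, and Rarb 27.7% ± 2.91 and 25.8% ± 3.76. Because Rarb is part of the sum, all 3 receptor shares carry the Top2b limit given above. Rarg held 8.42% ± 0.425 in FA and 11.6% ± 1.90 in DE. Its share was 7.81% to 8.79% over the FA libraries and 9.68% to 14.2% over the DE libraries, with no overlap, although its CPM did overlap. Of the 3 retinaldehyde dehydrogenase genes, Aldh1a2 held 85.9% ± 2.13 in FA and 87.5% ± 5.61 in DE, Aldh1a1 9.79% ± 1.71 and 8.61% ± 4.99, and Aldh1a3 4.32% ± 0.510 and 3.84% ± 0.819. All these shares come from the same libraries as the contrast and have no test.

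The 3 genes whose log2 CPM followed Retsat most closely over the 8 libraries, among 10620 genes with at least 5 CPM, were Acot1, Lpcat3 and Fbxo21. Acot1, a cytosolic acyl-CoA thioesterase, had a Pearson r of 0.993 and a log2 fold change of -2.25. Lpcat3, which puts polyunsaturated acyl chains into lysophospholipids, had an r of 0.991, with 48.5 ± 2.19 CPM in FA and 30.4 ± 2.25 in DE. Fbxo21, a substrate adaptor of an SCF ubiquitin ligase, had an r of 0.988, with 65.3 ± 1.47 and 45.2 ± 0.970 CPM. These correlations span 2 groups that differ in all 4 genes, and they describe likeness over shared libraries.

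Beyond these, 37 other genes of retinoid transport and metabolism were followed, a list that does not hold the whole pathway. Of them 20 had enough counts to test. This list and the partner and response lists below were chosen with earlier results of these data known. Their counts and p-values therefore describe these libraries and are not independent support. Of the 20 tested, 1 rose (Fabp5), 2 fell (Lipe and Rdh13) and 17 did not pass the test, against 3.58% of all tested genes called higher and 2.22% called lower. Fold changes were above 0 for 10 and below for 10, with a median log2 fold change of -0.01. The 17 genes that could not be tested include Rbp4 (plasma retinol transport), Crabp1 (retinoic acid binding) and Lrat (retinyl ester storage). Cyp26c1 (retinoic acid breakdown) and Rpe65 (visual cycle) are also among them. Other genes of some of these functions were tested, such as Crabp2, Cyp26a1 and Cyp26b1.

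Fabp5, a fatty acid-binding protein that also binds retinoic acid, rose with a wide spread between libraries. Fabp5 (chromosome 3, 10012585 to 10016610) had 24.9, 34.5, 27.9 and 43.2 CPM in FA replicates 2, 3, 4 and 6, and 52.9, 50.9, 91.6 and 77.0 CPM in DE replicates 1, 7, 3 and 5. All DE libraries were above all FA libraries, and the DE libraries numbered 12 were the highest. The log2 fold change was 1.07 ± 0.22 (SE, edgeR adjusted p = 0.0197). The call was lost in 6 of 19 alternative settings. Among them were libraries numbered 11 alone and the name number as a term (0.67 in each case). The others were without FA replicate 2 (0.95), FA replicate 4 (0.99) or DE replicate 3 (0.89), and with the difference of 25% built into the test.

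Lipe, hormone-sensitive lipase, hydrolyses diacylglycerol and also retinyl esters. Lipe (chromosome 7, 25379527 to 25398486) stood at 20.2, 21.9, 18.1 and 20.3 CPM in FA replicates 2, 3, 4 and 6, and at 9.98, 10.2, 9.58 and 8.13 CPM in DE replicates 1, 7, 3 and 5. It fell in every DE library to below every FA library, with means of 20.1 ± 1.54 and 9.47 ± 0.927 CPM (SD, n = 4 each). On the log2 scale the change was -1.09 ± 0.11 (SE, edgeR adjusted p = 0.000552). Lipe and Retsat are abundant in fat cells. The 7 brown adipocyte markers, 4 of them tested, summed to 289.6 to 445.7 CPM in FA and 279.5 to 547.9 in DE, nearly all of it from Fabp4, which endothelium also makes. The adipocyte genes Adipoq and Plin1 had 13 and 3 counts over all 8 libraries and Elovl3 had 16, while Ucp1 had 199 and Dio2 1455, the last at 4.18 to 6.76 CPM in FA and 5.54 to 9.62 in DE. Cidea was the 1 marker called of 4 tested, against 5.80% of all tested genes, at 13.8 to 19.0 CPM in FA and 7.83 to 9.83 in DE. Of the 9 hepatocyte markers, Alb and Afp had 3 counts each over all libraries, Apob 6, Fgb 1 and Serpina1a 0, while Ahsg had 1023, Apoa1 340, Apoa2 120 and Ttr 118. Their summed level was 4.41 to 6.59 CPM in FA and 5.22 to 12.7 in DE. The part of either marker list in the Lipe and Retsat values was not tested.

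Rdh13, a retinol dehydrogenase of mitochondria, measured 36.7, 38.3, 37.3 and 34.4 CPM in FA replicates 2, 3, 4 and 6, and 30.9, 28.0, 25.3 and 25.5 CPM in DE replicates 1, 7, 3 and 5. Rdh13 lies on chromosome 7, 4425665 to 4471280. It fell by 0.42 ± 0.10 on the log2 scale (SE, edgeR adjusted p = 0.0340), with no overlap between the groups. The call was lost in 10 of 19 alternative settings, including without any 1 of FA replicates 2, 3 and 4 or DE replicates 3, 5 and 7 (log2 fold change -0.44 to -0.38), and with libraries numbered 11 alone or the name number as a term (-0.32 in each case).

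Rdh14 and Dhrs4, which reduce retinaldehyde, were among the list's 4 genes with the highest levels per length, as was Adh5. Rdh14 was at 35.6, 40.5, 35.8 and 35.5 CPM in FA replicates 2, 3, 4 and 6, and at 30.8, 27.6, 27.9 and 30.2 CPM in DE replicates 1, 7, 3 and 5. The groups did not overlap, but the log2 fold change of -0.34 ± 0.09 (SE) did not pass the test (edgeR adjusted p = 0.0562), although Rdh14 was called by DESeq2 and by the likelihood ratio test. Dhrs4 had a log2 fold change of -0.17 (edgeR adjusted p = 0.356). Adh5, the class III alcohol dehydrogenase, had 0.03 (edgeR adjusted p = 0.914), and its sign changed between settings.

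Rbp7, a retinol-binding protein of endothelium and fat, had a log2 fold change of 0.46 (edgeR adjusted p = 0.401), with DE means of 7.47 CPM in libraries numbered 11 and 16.4 in those numbered 12. With libraries numbered 11 alone it was -0.24. Endothelial markers (10 genes) summed to 1163 to 1516 CPM in FA and 1228 to 1833 in DE, and 0 of 10 were called by edgeR's quasi-likelihood test, with 4 at an unadjusted p under 0.05, against 5.80% and 25.6% of all tested genes. The retinoic acid hydroxylases Cyp26a1 and Cyp26b1 and the retinaldehyde reductase Dhrs3, named after their values were seen because retinoic acid induces them, had log2 fold changes of -0.26, 0.12 and 0.06 (edgeR adjusted p = 0.647, 0.768 and 0.790).

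**Figure D3:**
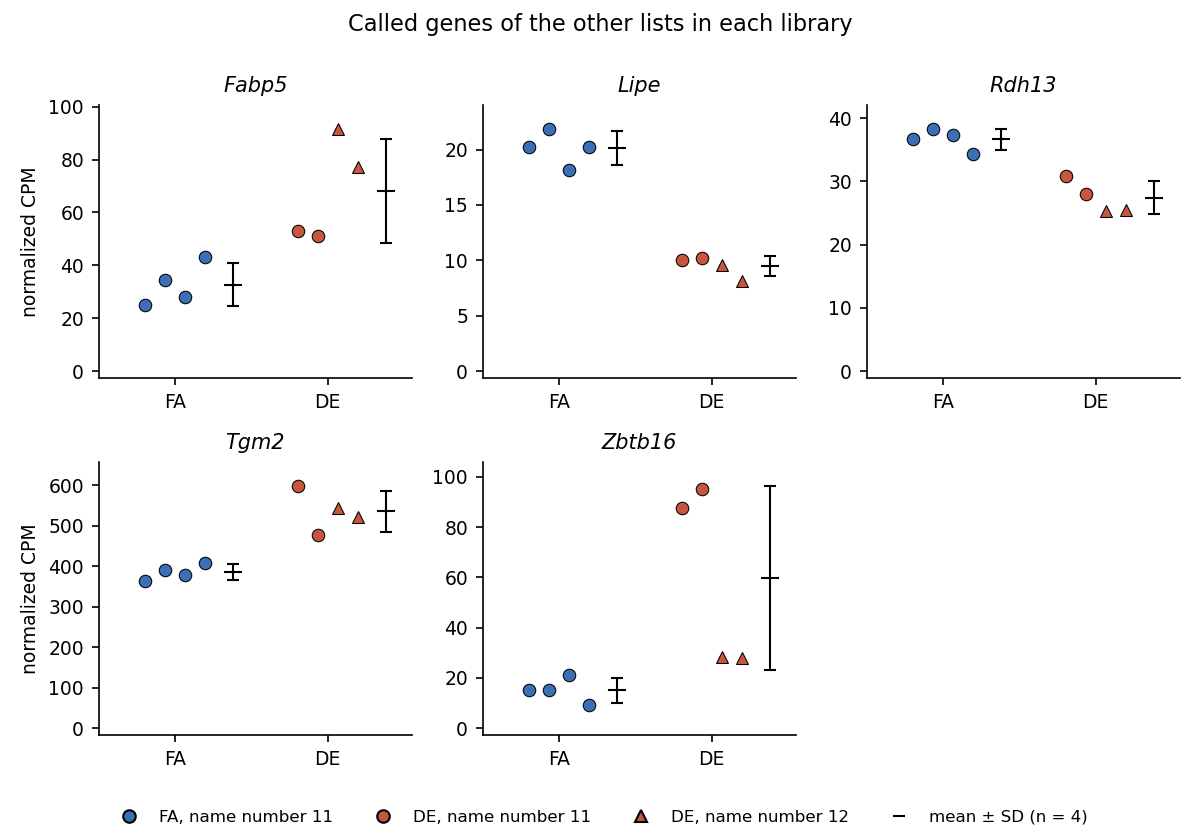
Normalized CPM of the other pathway and response genes that were called, one point per library on linear axes that start at 0, with the mean ± SD (n = 4). Lipe and Rdh13 sit lower in DE, Fabp5, Tgm2 and Zbtb16 sit higher, and the 2 DE libraries numbered 12 are the lower DE points for Zbtb16.

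Receptor partners and coregulators were covered by 17 genes, all tested, with 13 below 0 and 4 above. The count of calls was 0 with edgeR (quasi-likelihood and likelihood ratio tests), DESeq2 and limma-voom, while 4 had an unadjusted p under 0.05 in the first of these. Among all tested genes 5.80% were called and 25.6% had an unadjusted p under 0.05. The median log2 fold change was -0.20. The highest per length were Kat2b, a histone acetyltransferase (-0.39, edgeR adjusted p = 0.165), Ncor1, the corepressor that unliganded receptors bind (-0.35, edgeR adjusted p = 0.191), Hdac3, its histone deacetylase partner (0.03, edgeR adjusted p = 0.840), and Rxrb (-0.17, edgeR adjusted p = 0.367). With libraries numbered 11 alone, Kat2b was at -0.17 and Ncor1 at -0.15. The partners Rxra and Rxrg, added after their values were seen, had log2 fold changes of -0.15 and 0.01 (edgeR adjusted p = 0.490 and 0.980), Rxra with 43.0 to 66.4 CPM in FA and 48.4 to 55.9 in DE. Summed over the 17 genes the level was 1063 to 1555 CPM in FA and 930.6 to 1273 in DE.

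A list of 27 genes known to respond to retinoic acid, which leaves out responsive genes described above such as Rarb, Cyp26a1, Cyp26b1 and Dhrs3, had 18 genes tested. Here 2 rose (Tgm2 and Zbtb16), 0 fell and 16 did not pass, against 3.58% of all tested genes called higher and 2.22% called lower. Over the 18, 11 had a fold change above 0 and 7 below, with a median log2 fold change of 0.11. At an unadjusted p under 0.05 there were 8, against 25.6% of all tested genes. Neither called gene answers to retinoic acid alone. Tgm2, tissue transglutaminase, also responds to TGF-β, and Zbtb16, the zinc finger factor PLZF, is also induced by glucocorticoids.

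Tgm2 (chromosome 2, 158116405 to 158146392) measured 362.4, 391.4, 377.3 and 409.1 CPM in FA replicates 2, 3, 4 and 6, and 598.9, 476.7, 544.1 and 522.4 CPM in DE replicates 1, 7, 3 and 5. All DE libraries were above all FA libraries. Its log2 fold change was 0.48 ± 0.10 (SE, edgeR adjusted p = 0.0213). The call was lost in 6 of 19 alternative settings, among them without FA replicate 2 (0.45), FA replicate 4 (0.46) or DE replicate 3 (0.47), with libraries numbered 11 alone and with the name number as a term (0.48 in each case). Tgm2 is also made by endothelium and fibroblasts, whose marker sums are given above, and their part was not tested.

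Zbtb16 (chromosome 9, 48651797 to 48836225) was at 15.1, 15.1, 21.2 and 9.05 CPM in FA replicates 2, 3, 4 and 6, and at 87.6, 95.2, 28.4 and 27.9 CPM in DE replicates 1, 7, 3 and 5. The DE libraries fell into a high pair, numbered 11, and a lower pair, numbered 12, and both pairs were above FA. The log2 fold change was 1.98 ± 0.42 (SE, edgeR adjusted p = 0.0231), and 2.60 among libraries numbered 11. The call was lost without FA replicate 2 or FA replicate 3 (1.98 in each case). Tbx5, a transcription factor of heart and forelimb, averaged 30.4 ± 3.31 CPM in FA and 21.2 ± 5.11 in DE (SD, n = 4 each), and its log2 fold change of -0.52 ± 0.16 (SE) did not pass (edgeR adjusted p = 0.0783). It was called by DESeq2, by the likelihood ratio test and without DE replicate 1 (-0.69), and its log2 fold change was -0.30 with libraries numbered 11 alone and with the name number as a term. Bhlhe40, a transcriptional repressor, had a log2 fold change of 0.05 (edgeR adjusted p = 0.774).

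**Figure D4:**
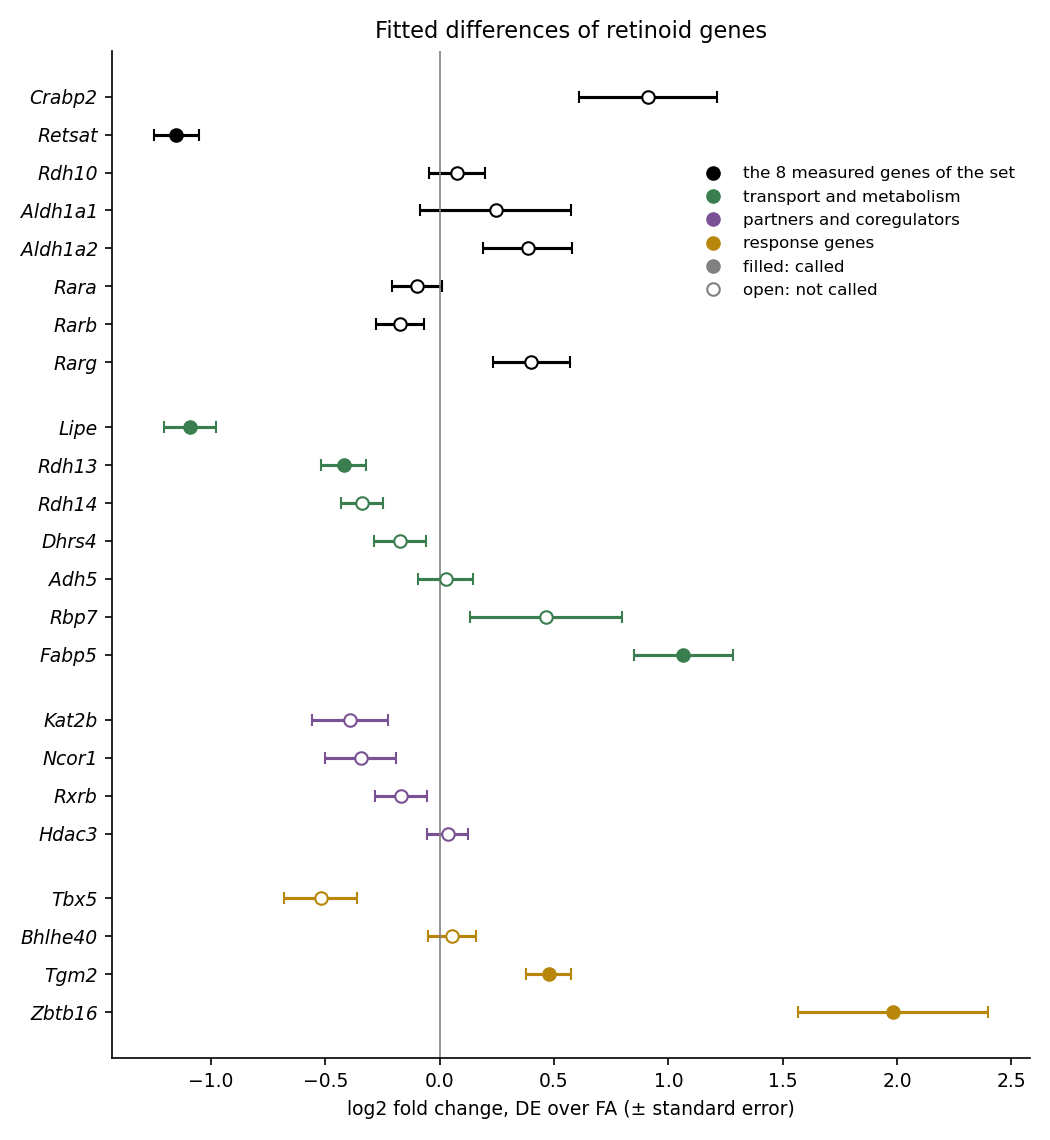
Fitted log2 fold change (DE over FA) with its standard error for the 8 measured genes of the set and for the called or most abundant genes of the 3 other lists. The vertical line marks no difference, with Retsat at -1.15 and Lipe at -1.09 on one side and Fabp5 at 1.07 and Zbtb16 at 1.98 on the other.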

How the data were processed

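NCMs were isolated from single male hearts, poly-A RNA was made into stranded libraries (TruSeq Stranded mRNA), and reads were sequenced on an Illumina HiSeq. The submitters' processing notes name TopHat, featureCounts and build mm10 among the tools. The deposited table holds raw counts per Entrez gene, 1 column per library, which the authors made before any normalization. Strand and multi-mapping settings of the counting are not given in the sources used here. The methods give a smaller group size than the 4 libraries per group deposited, and all 8 were used.

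Symbols were matched for 25275 of 27179 genes. Symbols and gene positions come from RefSeq, while exon lengths and shared exon bases come from GENCODE (both mm10). Levels per kilobase thus divide the deposited counts by GENCODE lengths. Counts were filtered (filterByExpr, minimum count 10), TMM-scaled and tested with edgeR 4.0.16 (quasi-likelihood, exposure only, R 4.3.3) with Benjamini-Hochberg adjustment over 14966 genes. The biological coefficient of variation was 15.95%. Totals of 17943024 to 39839737 counts set the counting precision. Each p-value sets the difference between DE and FA against the spread between these libraries. Nothing beyond separate hearts marks the libraries as independent litters. Shared litters, if any, are not accounted for and could make the p-values too small. The fit was tested on simulated data.

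The 9 genes, the pathway, partner and response lists and the marker lists were chosen with earlier results of these data known. Named genes were the 9, each called gene of the 3 pathway lists, the 4 most abundant per length in each list, and the 3 genes most correlated with a called gene of the set. Other marker lists were also summed, with calls and unadjusted p from edgeR's quasi-likelihood test. Smooth muscle and pericytes (9 genes) had 1608 to 2181 CPM in FA and 1172 to 1579 in DE, with 0 called and 2 under 0.05. Leukocytes (9, of which 7 tested) had 18.3 to 22.9 and 23.8 to 35.1, with 1 called and 3 under 0.05. Erythroid cells (7 of 8 listed, 5 tested) had 429.4 to 1023 and 674.5 to 1123, with 1 called and 1 under 0.05. Atria (7) had 571.5 to 1336 and 556.2 to 890.4, with 0 called and 3 under 0.05. Hepatocytes (9, of which 4 tested) had 4.41 to 6.59 and 5.22 to 12.7, with 0 called and 1 under 0.05. Cardiomyocyte markers had 3 calls of 12 (Myh7 higher, Myh6 and Pln lower) and 5 at an unadjusted p under 0.05. Over all tested genes 5.80% were called and 25.6% had an unadjusted p under 0.05, the background for each of these marker counts. Some genes of the pathway and response lists are not reported here and are in none of the list counts. Alternatives were DESeq2 1.42.0, limma 3.58.1 (voom), edgeR's likelihood ratio test, other scaling factors and filters, a tested difference of 25%, the number in the sample name as a term, libraries numbered 11 alone, and leaving out each library.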

Additional observations from a re-analysis of the deposited data

Results flagged for a closer look

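Rdh14 in FA replicate 3 was at 40.5 CPM, set apart from the other 3 FA libraries, which lay within 35.5 to 35.8 CPM. The gap divided by the range of the group was 0.934, above the critical value of Dixon's test for 4 libraries at the 95% level. It was the 1 group of 46 checked that passed, and chance alone passes about 1 group in 20.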

How the results depend on the processing

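Over 23 named genes and 19 alternatives, 393 of 437 fold changes kept their direction and side of the threshold, 25 lost the call, 8 gained it and 11 changed sign. Lipe was called in all 19 alternatives, with an adjusted p of 7.073e-16 to 0.005753. Of the 9 genes, chosen with this contrast known so that their counts only describe the fits, 1 was called in the reported fit (Retsat, at -1.20 to -1.08 over the alternatives), 2 by the likelihood ratio test (adding Crabp2), and 1 to 2 with a library left out, the highest without FA replicate 6 (adding Aldh1a2 at 0.62) or DE replicate 1 (adding Crabp2 at 1.13). Of the other transport and metabolism genes, 3 were called, against 5 by DESeq2 (adding Rdh11 and Rdh14), 4 by the likelihood ratio test (adding Rdh14) and 1 (Lipe) with the difference of 25% built into the test, with the name number as a term or with libraries numbered 11 alone, and 1 to 3 with a library left out, 1 without FA replicate 2, FA replicate 4 or DE replicate 3. Of the response genes, 2 were called, against 4 by DESeq2 and by the likelihood ratio test (adding Meis1 and Tbx5), 0 with the built-in difference, 1 (Zbtb16) with the name number as a term or libraries numbered 11 alone, and 0 to 4 with a library left out, 0 without FA replicate 2, 1 without FA replicate 3, FA replicate 4 or DE replicate 3 and 4 without DE replicate 1. No partner or coregulator was called in any alternative. Leaving out 1 library changed the sign of Aldh1a1 (-0.24 to 0.46), Adh5 (-0.04 to 0.13), Hdac3 (-0.01 to 0.07) and Bhlhe40 (-0.01 to 0.12). Adh5 was -0.06 and Rbp7 -0.24 both with the name number as a term and with libraries numbered 11 alone. The cause of these changes was not tested.

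Over all genes, 868 were called, 1633 by DESeq2, 1603 by the likelihood ratio test, 448 with the name number as a term, 260 with libraries numbered 11 alone, 114 with the built-in difference and 237 (without FA replicate 4) to 1168 (without DE replicate 1) with a library left out. Scaling by library totals alone gave 803 higher and 217 lower in place of 536 and 332. No paired analysis was made because no label pairs an FA library with a DE library. Depth limits Stra6, with 4 counts, and Crabp2, with 390.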
